A study of Mus musculus with 10 samples.

Results

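Cytosolic and mitochondrial heat shock proteins were followed through 10 listed genes: *Hspa1a*, *Hspa1b*, *Hspa8*, *Hsph1*, *Dnajb1*, *Hsp90aa1*, *Hsp90ab1*, *Hspb1*, *Hspd1* and *Hspe1*. The genes were found by matching Ensembl identifiers to symbols, and 9 of the 10 were tested, among 12147 genes in all. *Hspa1a* was not analysed here. The RNA came from whole livers of wild-type germ-free (GF) C57BL6 mice, with 1 sequencing library per mouse. The 5 GF+MEV mice received vesicles shed by gut bacteria (MEV), isolated from caecal content and stool of conventional control mice, by mouth in PBS at 80 μg per dose, 2 doses a week for 3 weeks. The 5 GF+PBS mice received PBS alone. The age and sex of these germ-free mice are not given in the sources used here. The comparison asked whether exposure to MEV changed the liver transcriptome.

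Heat shock proteins are chaperones: they hold, fold or refold other proteins and are known for their rise after heat and other protein-damaging stress. HSP70 proteins bind unfolded stretches in a cycle driven by ATP, which J-proteins start and exchange factors end, and pass clients on to HSP90 in the cytosol or to the HSP60/HSP10 chamber in mitochondria. Under stress the transcription factor HSF1 binds heat shock elements, short repeated units in promoters, while some family members are made at a high level in liver cells without stress.

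The RefSeq promoter table (GRCm38.p6), in which each entry runs from 250 bases before to 50 bases after a start site, held entries for 7 of the 10 genes, all but *Hspa8*, *Hsp90aa1* and *Hsp90ab1*. The part before the start was searched on both strands for 3 units of the element in perfect register, each unit being GAA or its reverse complement, in alternation and 2 bases apart. *Hspd1* and *Hspe1* held it, and the other 5 genes did not. Over the whole table, 0.466% of 32851 promoters and 0.514% of 27025 genes held it. A match describes these letters and is not evidence of binding. Elements with an imperfect unit were not searched for, so a gene without a match may still hold one. *Hspd1* and *Hspe1* stand head to head on chromosome 1 and share the site, within chr1:55088053-55088082. It begins at offset -89 from the *Hspe1* start, where -1 is the base just before the start, and also lies in an annotated first exon of *Hspd1*. It is shown because no other match was found in the listed genes, and it is printed on the *Hspe1* strand with the units and the 2 bases between them in capitals. For *Hsph1*, the stretch at chr5:149636351-149636380, shown on the minus strand, holds the shorter TTCNNGAA, in capitals, which 7.17% of all promoters hold. The lower-case letters after it continue in register with a mismatched unit, CTC, and then GAA.

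Hspe1: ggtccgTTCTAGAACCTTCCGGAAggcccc

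Hsph1: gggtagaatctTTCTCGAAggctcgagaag

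The 120 bases before the start of *Hspa1a* (chr17:34972157-34972276) and *Hspa1b* (chr17:34959239-34959358), both on the minus strand, are shown because these neighbours are near-copies of each other. They are identical at 119 of 120 positions, and at 247 of the 250 in the table. The capitals mark a CCAAT box read on the other strand, and 33.8% of all promoters hold a CCAAT box on either strand.

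Hspa1a: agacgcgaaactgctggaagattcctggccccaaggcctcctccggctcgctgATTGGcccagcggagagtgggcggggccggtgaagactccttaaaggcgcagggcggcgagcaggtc

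Hspa1b: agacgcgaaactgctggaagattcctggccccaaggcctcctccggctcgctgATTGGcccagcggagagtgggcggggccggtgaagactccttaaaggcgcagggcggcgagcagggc

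The likeness continues into the transcripts, where 62.3% of the 50-base windows of *Hspa1b* occur exactly in *Hspa1a*. A read that lies wholly within shared sequence cannot be placed, so the count of *Hspa1b* is uncertain. The windows do not take account of read length or read pairs, so their share is not the share of unplaceable reads. Other members also share windows with other genes, pseudogenes among them. The share of windows found in any other gene was 47.5% for *Hsp90aa1*, 50.1% for *Hspb1*, 42.1% for *Hspd1*, 39.4% for *Hspa8* and 22.8% for *Hspe1*, against 3.44% for *Hsp90ab1*, 0.412% for *Dnajb1* and 0 for *Hsph1*. First exons of *Hspd1* and *Hspe1* overlap on opposite strands, where reads counted without strand cannot be assigned.

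Libraries held 15746119 to 20523649 counts on genes. GF+MEV replicate 2 stood apart in the gene CT010467.1, at 78174 CPM (counts scaled to library size with TMM factors) against 1280 to 3118 CPM elsewhere. It did so too in *Lars2*, at 8158 CPM against 101 to 304 CPM, and its TMM factor, 0.890, was the lowest. Within GF+PBS, replicates 1 and 3 were alike, and so were replicates 4 and 5. A chi-square per gene between their counts was 6.36 and 7.20, the lowest of the 10 pairs in that group, which reached 25.0. These pairs were not sharply apart from others, with GF+PBS replicates 2 and 5 at 8.57 and GF+MEV replicates 1 and 5 at 8.22. Markers of hepatocytes summed to between 99987 and 119511 CPM in every liver. The hepatocyte genes *Tat* and *Cps1* were higher in GF+MEV. Kupffer cell, stellate cell, skeletal muscle and red blood cell lists had no called gene, while *Krt19* (biliary) and *Lyve1* (endothelial) were higher, and *Clec4g* (endothelial), *Cd79a* and *Cd79b* (B cells) lower. *Krt19* was at 0.30 to 0.78 CPM in GF+PBS and at 0.96 CPM in GF+MEV replicate 5. The other tested biliary markers were not called and parted in direction, *Sox9* at -0.98 (edgeR adjusted p = 0.103) and *Spp1* at 0.52 (0.133) on the log2 scale. The part of other cell types in the values below was not tested, and in whole liver fewer cells of a type cannot be told apart from less RNA per cell.

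None of the 9 heat shock genes differed between GF+MEV and GF+PBS livers at an edgeR adjusted p under 0.05. Of all tested genes 7.64% did (4.12% higher and 3.52% lower in GF+MEV). DESeq2 and limma-voom also called 0 of the 9, against 9.89% and 7.79% of all genes. At an unadjusted p under 0.05, edgeR marked 1 of the 9, *Hspa8*, against 21.2% of all genes. In each of the 9 genes the groups overlapped, and 7.39% of all genes had groups without overlap. With only 9 genes, a count of 0 called or 0 without overlap is near the shares over all genes. Log2 fold changes of GF+MEV over GF+PBS lay between -0.10 and 0.20, with a median of 0.043, against -0.0037 over all genes. Every 95% interval from the edgeR fit lay between -0.39 and 0.39, that is between 0.764-fold and 1.31-fold. A change of 1.41-fold, 0.5 on the log2 scale, was outside the interval of each of the 9 genes, taken 1 gene at a time.

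**Figure D1:**
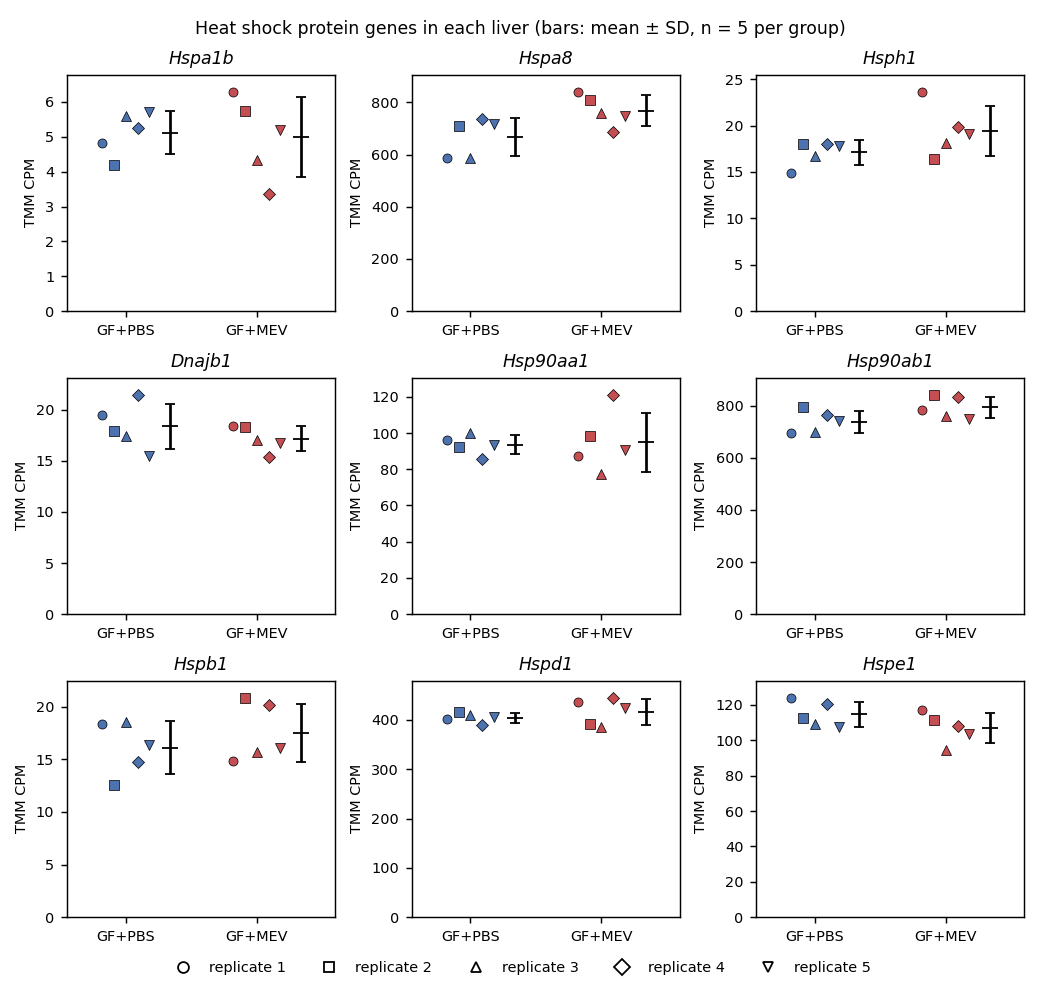
Level of each tested heat shock gene in TMM-scaled CPM (vertical axis from 0), 1 symbol per liver with the same symbol shape for a replicate number, in GF+PBS (blue) and GF+MEV (red), with the mean ± SD of 5 livers beside each group. The groups overlap in all 9 panels, and for *Hspa8* GF+PBS replicates 1 and 3, at 589 and 588 CPM, lie below all other livers.

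*Hspa8* (ENSMUSG00000015656, chromosome 9 of GRCm38 from 40800984 to 40810087) encodes HSC70, the HSP70 chaperone that cells make without stress. Its levels were 839, 809, 759, 687 and 747 CPM in GF+MEV replicates 1 to 5 and 589, 710, 588, 736 and 718 CPM in GF+PBS replicates 1 to 5. GF+PBS replicates 1 and 3 were the lowest of the 10 livers, and 4 GF+MEV livers were above every GF+PBS liver. The means were 768 ± 59.1 CPM and 668 ± 73.5 CPM (SD, n = 5 each). The edgeR estimate was 0.20 on the log2 scale with a standard error of 0.081 (95% interval 0.029 to 0.37, unadjusted p = 0.025, adjusted p = 0.159). Permuting the group labels gave an exact two-sided p of 0.063 (n = 5 mice per group). With the alike GF+PBS livers summed, the estimate was 0.20 (edgeR adjusted p = 0.275). The same GF+PBS replicates 1 and 3 were apart from the rest of their group in the clock gene *Per3*, at 19.5 and 23.1 CPM against 57.7 to 68.1 CPM, and its part in the *Hspa8* levels was not tested.

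*Hspa1b* (ENSMUSG00000090877, chromosome 17 from 34956436 to 34959238) encodes the stress-inducible HSP70. It was at 6.28, 5.73, 4.35, 3.37 and 5.20 CPM in GF+MEV replicates 1 to 5 and at 4.83, 4.203, 5.59, 5.26 and 5.70 CPM in GF+PBS replicates 1 to 5. The highest and the lowest liver were both in GF+MEV. Behind these values were 60 to 104 counts per library. edgeR put the log2 fold change at -0.045 with a standard error of 0.16 (95% interval -0.39 to 0.30, edgeR adjusted p = 0.917), the widest interval of the 9, and its sign turned without GF+MEV replicate 3 (0.0034) or replicate 4 (0.069).

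Of the partners that drive the HSP70 cycle, neither *Dnajb1* nor *Hsph1* passed the threshold. *Dnajb1* (ENSMUSG00000005483, chromosome 8 from 83608193 to 83612653), the J-protein HSP40 that delivers clients to HSP70, was at 18.4, 18.3, 16.99, 15.4 and 16.8 CPM in GF+MEV and 19.5, 17.9, 17.4, 21.4 and 15.5 CPM in GF+PBS, in order of replicate. GF+PBS held the highest liver, and the lowest of each group were within 1 CPM of each other. Its log2 fold change was -0.10 (95% interval -0.30 to 0.098, edgeR adjusted p = 0.594). *Hsph1* (ENSMUSG00000029657, chromosome 5 from 149614287 to 149636376), HSP110, an exchange factor that releases ADP from HSP70, was at 23.6, 16.4, 18.1, 19.9 and 19.1 CPM in GF+MEV and 14.9, 18.04, 16.7, 17.99 and 17.8 CPM in GF+PBS. GF+MEV replicate 1 was the highest liver and GF+PBS replicate 1 the lowest. GF+MEV replicate 2 lay within the GF+PBS range, and 4 GF+MEV livers were above every GF+PBS liver. For *Hsph1* the estimate was 0.18 on the log2 scale (95% interval -0.024 to 0.39, edgeR adjusted p = 0.301).

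HSP90 is made from a pair of cytosolic genes, of which *Hsp90ab1* is the constitutive form and *Hsp90aa1* the more inducible one. *Hsp90ab1* (ENSMUSG00000023944, chromosome 17 from 45567775 to 45573271) was at 784, 841, 762, 832 and 750.1 CPM in GF+MEV and 695, 794, 699.7, 765 and 741 CPM in GF+PBS. As for *Hspa8*, GF+PBS replicates 1 and 3 were the lowest livers. Its difference was 0.10 on the log2 scale (95% interval -0.025 to 0.23, edgeR adjusted p = 0.351). *Hsp90aa1* (ENSMUSG00000021270, chromosome 12 from 110690605 to 110702728) was at 87.2, 98.2, 77.1, 121 and 90.7 CPM in GF+MEV and 95.9, 92.1, 100.2, 85.9 and 93.4 CPM in GF+PBS. Both extremes were in GF+MEV, replicate 4 high and replicate 3 low, and the coefficient of variation was 17.4% in GF+MEV and 5.60% in GF+PBS. Its log2 fold change was 0.021 (95% interval -0.19 to 0.23, edgeR adjusted p = 0.935), and -0.083 without GF+MEV replicate 4.

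*Hspb1* (ENSMUSG00000004951, chromosome 5 from 135887919 to 135889563) encodes HSP25, a small heat shock protein that holds unfolded proteins without using ATP. It was at 14.8, 20.8, 15.69, 20.2 and 16.1 CPM in GF+MEV and 18.4, 12.6, 18.6, 14.7 and 16.3 CPM in GF+PBS. Each group had high and low livers, and the means of 17.5 ± 2.77 CPM and 16.1 ± 2.52 CPM (SD, n = 5 each) were closer than either SD. The estimate was 0.12 on the log2 scale (95% interval -0.15 to 0.39, edgeR adjusted p = 0.637).

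The mitochondrial pair is *Hspd1*, for HSP60, and *Hspe1*, for its lid HSP10, and neither passed the threshold. *Hspd1* (ENSMUSG00000025980, chromosome 1 from 55077835 to 55088243) was at 437, 392, 386, 445 and 425 CPM in GF+MEV and 401, 415, 410.4, 389 and 406 CPM in GF+PBS. The GF+PBS livers lay inside the GF+MEV range, and 3 GF+MEV livers were above all of them. The change was 0.043 on the log2 scale (95% interval -0.077 to 0.16, edgeR adjusted p = 0.727), the narrowest interval of the 9. *Hspe1* (ENSMUSG00000073676, chromosome 1 from 55088132 to 55091307) was at 117, 112, 94.8, 108 and 104 CPM in GF+MEV and 124, 113, 109, 120.3 and 108 CPM in GF+PBS. GF+MEV replicate 3 was the lowest liver and GF+PBS replicates 1 and 4 the highest. *Hspe1* had an estimate of -0.10 on the log2 scale (95% interval -0.24 to 0.042, edgeR adjusted p = 0.425).

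**Figure D2:**
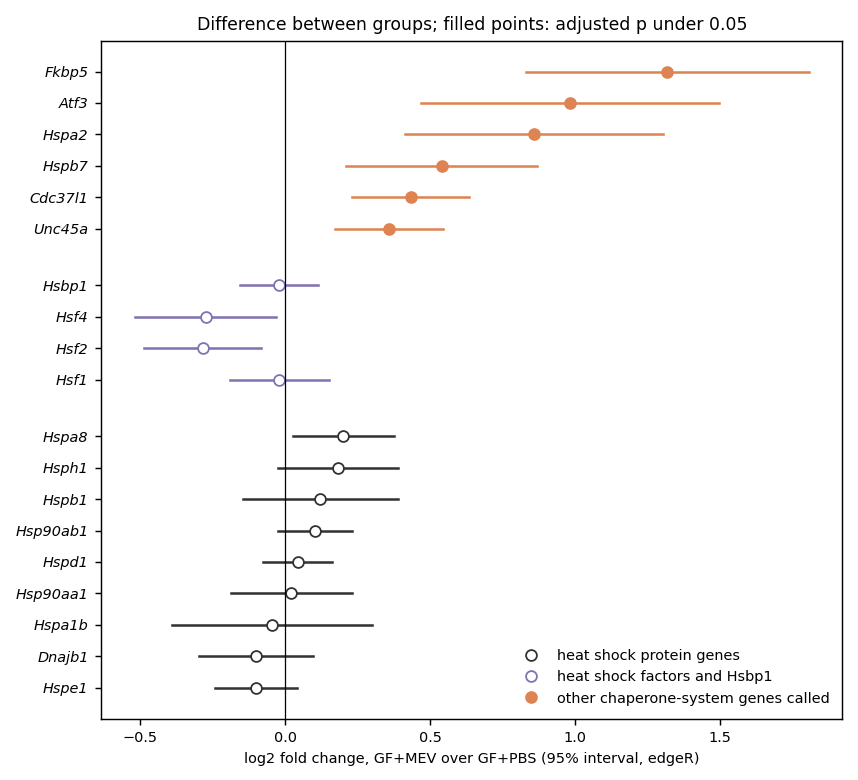
Log2 fold change of GF+MEV over GF+PBS (horizontal axis) with its 95% interval from the edgeR fit, for the 9 heat shock genes (black), heat shock factors and *Hsbp1* (violet) and the chaperone-system genes past the threshold (orange). Filled points have an adjusted p under 0.05. The heat shock genes lie between -0.10 and 0.20 and the 6 filled points between 0.36 and 1.32.

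Levels were compared between genes as CPM per kb of annotated exon. In GF+PBS livers *Hsp90ab1* was highest at 246 ± 14.1 CPM per kb (SD, n = 5). *Hspa8* (155 ± 17.1) and *Hspd1* (153 ± 3.78) followed and did not differ beyond their spread. *Hspe1* stood at 77.9 ± 4.79, *Hsp90aa1* at 23.8 ± 1.33 and *Hspb1* at 15.6 ± 2.45 CPM per kb. *Dnajb1* (5.73 ± 0.697), *Hsph1* (2.35 ± 0.183) and *Hspa1b* (1.83 ± 0.219) were lowest. Over all 10 livers the ranges of *Hsp90aa1* (19.6 to 30.8) and *Hspb1* (12.2 to 20.2) overlapped, as did those of *Hsph1* (2.06 to 3.25) and *Hspa1b* (1.20 to 2.24). The order was the same in GF+MEV livers, where *Hsp90ab1* stood at 265 ± 13.6 and *Hspa1b* at 1.78 ± 0.411 CPM per kb. Exon lengths pool all annotated transcripts, so a gene with many isoforms such as *Hsph1* comes out low on this scale. They also include windows shared with other genes, none in *Hsph1* but 62.3% in *Hspa1b*, and 3.44% in *Hsp90ab1* against 39.4% in *Hspa8* and 42.1% in *Hspd1*. The reads lost there were not measured, so the order of the top 3 genes and of the lowest pair is uncertain. In CPM, the 9 genes together held 0.200% to 0.228% of normalised counts in each liver, of which *Hspa8*, *Hsp90ab1* and *Hspd1* made up 85.9% to 89.4%.

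**Figure D3:**
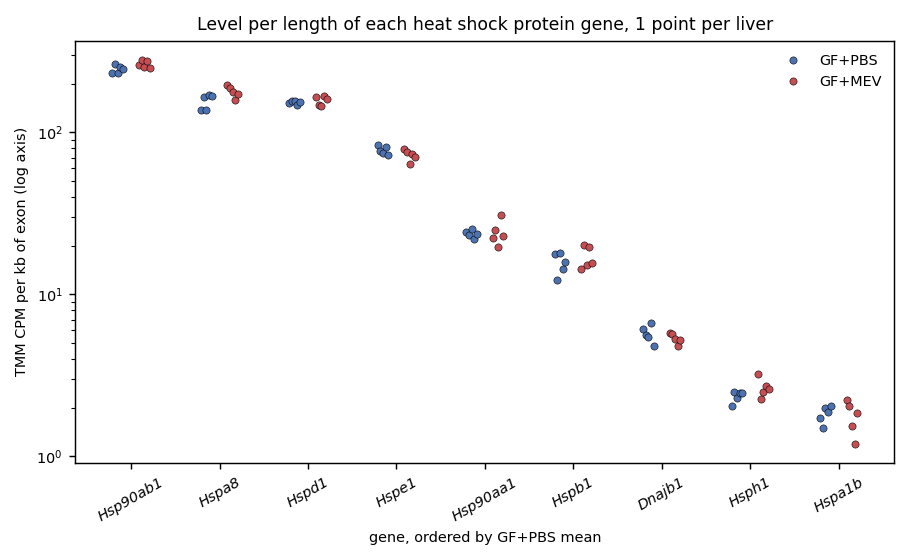
Level of each heat shock gene in TMM-scaled CPM per kb of exon (vertical log axis), 1 point per liver, GF+PBS in blue and GF+MEV in red, ordered by the GF+PBS mean. The order runs from *Hsp90ab1*, at 232 to 280.3, to *Hspa1b*, at 1.20 to 2.24 CPM per kb.

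Ratios of CPM within a liver do not depend on the scaling of the library. For the 4 ratios examined, the p-values of exact permutation tests, two-sided and on the log2 scale, were adjusted over the 4. *Hsp90aa1* to *Hsp90ab1*, the inducible over the constitutive HSP90, lay at 0.101 to 0.145 in GF+MEV livers, with GF+PBS livers at 0.112 to 0.143 (difference -0.097 on the log2 scale, exact permutation p = 0.413, adjusted 0.550, n = 5 mice per group). *Hspa1b* to *Hspa8*, the inducible over the constitutive HSP70, lay at 0.0049 to 0.0075 in GF+MEV livers, with GF+PBS livers at 0.0059 to 0.0095 (difference -0.27, exact permutation p = 0.135, adjusted 0.270, n = 5 mice per group). *Hsph1* to *Hspa8* ran from 0.0203 to 0.0289 and from 0.0244 to 0.0284 (difference -0.029, exact permutation p = 0.762, also after adjustment, n = 5 mice per group).

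The ratio of *Hspd1* to *Hspe1*, the genes that share the heat shock element shown above, was 3.73, 3.51, 4.07, 4.10 and 4.09 in GF+MEV replicates 1 to 5 and 3.24, 3.69, 3.75, 3.24 and 3.77 in GF+PBS replicates 1 to 5. GF+MEV replicates 3, 4 and 5 were above every other liver and GF+PBS replicates 1 and 4 below. The difference was 0.14 on the log2 scale (exact two-sided permutation p = 0.071, adjusted 0.270, n = 5 mice per group). None of the 4 ratios passed the threshold.

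**Figure D4:**
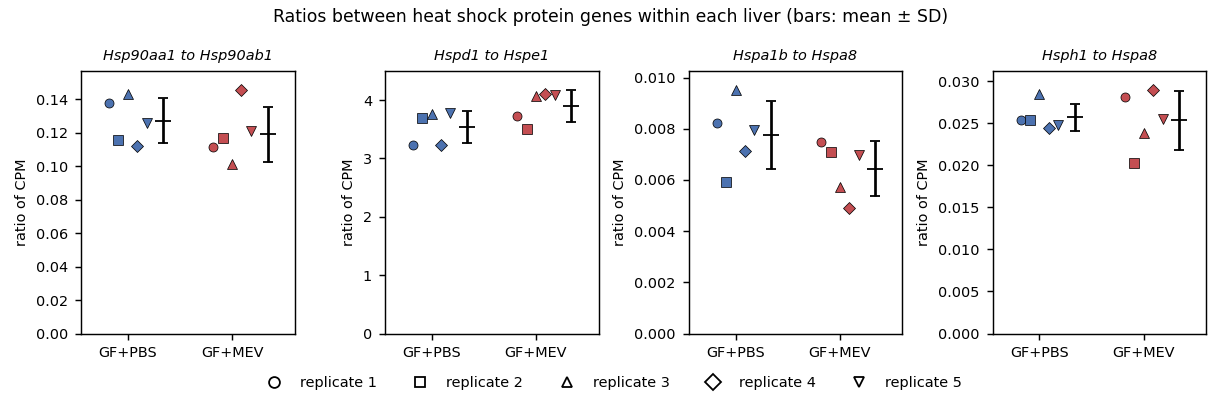
Ratio of CPM between pairs of heat shock genes (vertical axes from 0), 1 symbol per liver with the mean ± SD of 5 livers beside each group. The groups overlap in all 4 panels, and for *Hspd1* to *Hspe1* 3 GF+MEV livers, at 4.07 to 4.10, lie above the rest.

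Around the heat shock genes, 117 further genes of the chaperone system were listed by role, of which 112 were tested. At an edgeR adjusted p under 0.05, 6 of them rose in GF+MEV livers, 5.36% beside 4.12% of all genes, and 0 fell. An unadjusted p under 0.05 was found for 20 of them, 17.9% beside 21.2% of all genes. DESeq2 called 8 higher and 0 lower, and limma-voom 6 and 0. The median log2 fold change of the 112 genes was 0.017. The direction of the lists depends on scaling: with upper-quartile factors 5 genes were higher and 3 lower, and with library size alone 4 were higher and 6 lower.

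No heat shock factor passed the threshold. *Hsf1*, the main regulator of the stress response, lay at 17.1 to 18.6 CPM in GF+MEV livers and at 16.6 to 21.01 CPM in GF+PBS livers, and the groups overlapped (log2 fold change -0.021, 95% interval -0.19 to 0.15, edgeR adjusted p = 0.922). *Hsf2*, a related factor that can pair with HSF1, was at 17.2, 18.5, 14.4, 17.1 and 18.2 CPM in GF+MEV and 20.3, 23.6, 19.8, 17.6 and 22.6 CPM in GF+PBS. All but replicate 4 of the GF+PBS livers were above every GF+MEV liver. Its log2 fold change was -0.28 (95% interval -0.49 to -0.082, edgeR adjusted p = 0.087), and -0.34 without GF+PBS replicate 4 (edgeR adjusted p = 0.049). For *Hsf4* edgeR gave -0.27 on the log2 scale (adjusted p = 0.174). *Hsbp1*, whose product binds HSF1 and attenuates it, stood at -0.020 (edgeR adjusted p = 0.904).

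Among 16 HSP90 co-chaperones, 3 were called higher, beside 4.12% of all tested genes. No list was tested as a set. *Fkbp5*, an immunophilin that restrains steroid receptors held by HSP90 and is itself a glucocorticoid target gene, was at 58.0, 115, 73.7, 60.4 and 108 CPM in GF+MEV and 31.9, 52.2, 33.2, 25.7 and 23.4 CPM in GF+PBS. The groups did not overlap, and GF+PBS replicate 2 came nearest to GF+MEV. edgeR put the rise at 1.32 on the log2 scale, with a standard error of 0.23 (adjusted p = 0.0022). *Cdc37l1*, a relative of the kinase co-chaperone CDC37, rose from 36.1 ± 2.66 to 48.8 ± 7.44 CPM (SD, n = 5 each; log2 fold change 0.43, edgeR adjusted p = 0.011), also without overlap. Its exons overlap those of *Ak3* on the other strand. *Unc45a*, a chaperone of myosin that binds HSP90, rose from 17.4 ± 1.31 to 22.3 ± 2.37 CPM (SD, n = 5 each; log2 fold change 0.36, edgeR adjusted p = 0.020), without overlap. Its call was lost in 5 of 19 alternative fits, with library size alone (edgeR adjusted p = 0.056), with the alike GF+PBS livers summed (0.051), and without GF+MEV replicate 1 (0.054), GF+MEV replicate 3 (0.054) or GF+PBS replicate 3 (0.058), while the log2 fold change lay between 0.28 and 0.41 over the 19. *Fkbp4*, the immunophilin that favours receptor activity, went the other way without passing the threshold (log2 fold change -0.20, edgeR adjusted p = 0.087).

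In the wider HSP70 family 1 of 8 tested genes was called higher, beside 4.12% of all tested genes. *Hspa2*, an HSP70 best known from testis, was at 4.58, 5.73, 5.12, 4.32 and 4.76 CPM in GF+MEV and 1.44, 3.14, 1.96, 3.49 and 3.42 CPM in GF+PBS. The groups did not overlap, and GF+PBS replicates 1 and 3 were again the lowest livers. The rise of *Hspa2* was 0.86 on the log2 scale with a standard error of 0.21 (edgeR adjusted p = 0.020), and it missed the threshold without GF+PBS replicate 3 (0.77, edgeR adjusted p = 0.053). Among 5 tested small heat shock proteins, *Hspb7*, a muscle-type member, went from 4.28 ± 0.868 to 6.20 ± 0.787 CPM (SD, n = 5 each; log2 fold change 0.54, edgeR adjusted p = 0.045), with overlap between the groups. This call was lost in 12 of 19 alternative fits (edgeR adjusted p up to 0.097), while the log2 fold change lay between 0.42 and 0.63 over the 19. Summed markers of skeletal muscle lay at 248 to 342 CPM in GF+MEV livers and at 209 to 765 CPM in GF+PBS livers, and their part was not tested. *Hspb8*, partner of BAG3 in selective autophagy, was at 161 to 180.0 CPM in GF+MEV and 133 to 162 CPM in GF+PBS (log2 fold change 0.21, edgeR adjusted p = 0.076), and DESeq2 called it higher.

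Of 11 other known HSF1 targets, *Atf3* alone passed the threshold, beside 7.64% of all tested genes. *Atf3*, a stress-induced transcription factor that many pathways switch on, was at 1.95, 1.86, 1.30, 1.91 and 1.80 CPM in GF+MEV and 0.444, 1.12, 0.893, 1.11 and 0.841 CPM in GF+PBS. The groups did not overlap (0.98 on the log2 scale with a standard error of 0.24, edgeR adjusted p = 0.021). These levels rest on few counts, and *Atf3* did not pass a filter of at least 10 counts in every library. It was called in the 18 alternative fits that held it.

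The remaining lists had no gene past the threshold. Among 13 cytosolic J-proteins the median log2 fold change was 0.071, and *Dnajb4* (0.28, edgeR adjusted p = 0.074) was called higher by DESeq2 only of the 3 tools. The 10 HSP70 exchange factors and adaptors had a median of 0.018. The 13 mitochondrial chaperones and proteases had a median of 0.00028 and the 14 subunits of TRiC and prefoldin, which fold actin and tubulin, one of 0.015. For the 16 chaperones of the endoplasmic reticulum, such as *Hspa5* for BiP, the median was 0.045 and 0 had an unadjusted p under 0.05. *Cirbp* and *Rbm3*, which rise when temperature falls, had log2 fold changes of 0.0064 (95% interval -0.20 to 0.22) and 0.10 (95% interval -0.039 to 0.24).

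**Figure D5:**
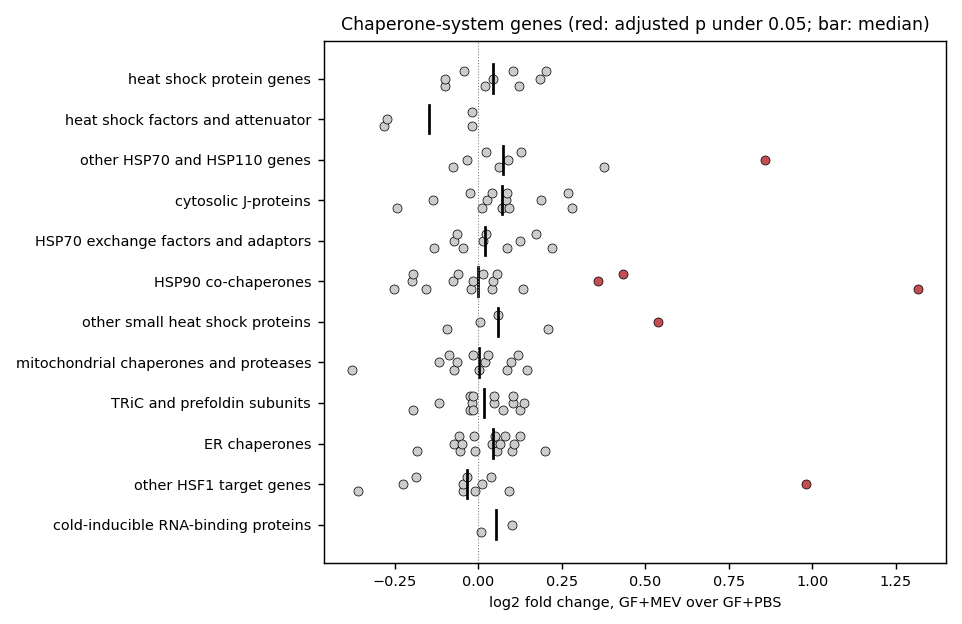
Log2 fold change of GF+MEV over GF+PBS (horizontal axis) for every tested gene of the heat shock genes and of 11 chaperone-system lists, 1 point per gene, with called genes in red and a bar at each list's median. The 6 red points lie to the right of 0, and the heat shock genes of the top row hold none.

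The standardised mean of the 9 genes over the 10 livers was compared with each other gene of at least 1 CPM, by the root mean square difference of standardised log2 CPM. The nearest of 11825 genes were *Ccz1* (0.366 SD), *Hspa4* (0.447), *Ezh2* (0.458), *Zcchc17* (0.474) and *Naa20* (0.478), where the median over all genes was 1.34. *Hspa4*, an HSP110-type relative of *Hsph1*, is in the listed HSP70 family, and at 109.7 ± 7.85 CPM in GF+MEV and 108 ± 1.12 CPM in GF+PBS (SD, n = 5 each) it was not called (log2 fold change 0.022, edgeR adjusted p = 0.875).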

How the data were processed

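Liver RNA of 10 germ-free mice was analysed. Before deposit, the authors mapped the reads with STAR 2.7.3a on GRCm38, counted them per gene with HTSeq, left out genes with fewer than 20 counts and deposited raw counts. The annotation and strand setting of the counting are not given in the sources used here. The table held 5 further columns, which match no described sample and were not used. Genes with at least 20 counts over the 10 libraries (12147 of 12148) were compared with edgeR 4.0.16 (R 4.3.3): TMM factors, quasi-likelihood test, Benjamini-Hochberg adjustment over all genes, threshold 0.05. Intervals of 95% and standard errors came from the same fit. Livers of a group were taken as separate samples, so p-values set the difference between groups against the spread between livers. The cage or isolator of each mouse is not given in the sources used here, and the part of housing was not tested. For single values the 252 labelings of the livers were enumerated in an exact permutation test, two-sided, whose smallest p is 0.0079. Symbols, exons and transcripts came from GENCODE M21, in which 10 identifiers had no symbol, and promoters from RefSeq. Protein sequences were not used here.

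The ratio to *Hspa8* planned for *Hspa1a* and *Hspa1b* together was taken from *Hspa1b* alone. The heat shock genes and all lists were chosen with earlier results of these data known. The text names, by rule, every heat shock gene, every called gene of the lists, the heat shock factors with *Hsbp1*, and the 5 genes with the nearest profile. *Per3*, CT010467.1, *Lars2*, *Hspb8*, *Fkbp4*, *Dnajb4*, *Cirbp* and *Rbm3* were chosen after their values were seen. Alternatives were DESeq2 1.42.0, limma-voom (limma 3.58.1), other factors and filters, a replicate block, summing alike GF+PBS livers, and leaving out each liver. The fits were tested on simulated data.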

Additional observations from a re-analysis of the deposited data

Results flagged for a closer look

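Among 38 groups of 5 values (each heat shock gene, each called chaperone-system gene and each ratio, in each group of livers), Dixon's ratio set 1 liver apart in 2 groups, where chance gives about 1.9. *Atf3* was 1.30 CPM in GF+MEV replicate 3 and 1.80 to 1.95 CPM in the other GF+MEV livers. The ratio of *Hsph1* to *Hspa8* was 0.0284 in GF+PBS replicate 3 and 0.0244 to 0.0254 in the other GF+PBS livers.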

How the results depend on the processing

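None of the 9 heat shock genes was called in any of the 19 alternative fits, whose smallest adjusted p for a heat shock gene ran from 0.104 to 0.323. Over all genes, 561 were called with the alike GF+PBS livers summed (352 higher, 209 lower), against 928 (500 higher, 428 lower), and 696 to 926 with a liver left out. Of called genes 53.9% were higher in GF+MEV, 41.2% with upper-quartile factors (428 higher, 612 lower) and 32.5% with library size alone (332 higher, 691 lower). The count of other chaperone-system genes called higher, 6, was 3 to 6 with a liver left out, lowest without GF+PBS replicate 3. The count called lower, 0, was 3 with upper-quartile factors, 6 with library size alone, and 1 without GF+MEV replicate 4 (*Rgs2*) or GF+PBS replicate 4 (*Hsf2*). The median log2 fold change of all genes, -0.0037, was -0.046 with upper-quartile factors and -0.078 with library size alone. Log2 fold changes turned sign for *Hsp90aa1* with upper-quartile factors (-0.021) or library size alone (-0.055), for *Hspd1* with library size alone (-0.031) and for *Hsbp1* with alike livers summed (0.0014). With a liver left out, *Hspa1b* turned without GF+MEV replicate 3 (0.0034) or 4 (0.069) and ran from -0.14 to 0.069, *Hsp90aa1* from -0.083 to 0.087, *Hsf1* from -0.050 to 0.038 and *Hsbp1* from -0.056 to 0.0081. The lone turn of *Hsf1* was without GF+PBS replicate 2 (0.038), *Hsp90aa1* turned also without GF+PBS replicate 4 (-0.0082), and *Hsbp1* without GF+MEV replicate 4 (0.0054) or GF+PBS replicate 1 (0.0081). The ratio of *Hsph1* to *Hspa8*, -0.029, was 0.0098 by medians over livers and -0.080 to 0.049 with a liver left out, turning without GF+MEV replicate 2 (0.049) or GF+PBS replicate 3 (0.0081). The other ratios ran from -0.17 to -0.041 (*Hsp90aa1* to *Hsp90ab1*), 0.11 to 0.18 (*Hspd1* to *Hspe1*) and -0.36 to -0.17 (*Hspa1b* to *Hspa8*) with a liver left out. No ratio passed the threshold under any alternative. *Hsf2* was called with upper-quartile factors (-0.32) and library size alone (-0.36). The cause of these turns was not tested. No pairing of livers by replicate number was seen (correlation of deviations from group means -0.20 to 0.19 over the 5 numbers). Whether the numbers mark pairs was not tested. With the replicate block 792 genes were called, 0 heat shock genes and 6 other chaperone-system genes, without *Hspb7* and with *Dnajb4*. Among the heat shock genes, depth limits *Hspa1b* most, at 60 to 104 counts. *Atf3* was left out by the filter of at least 10 counts in every library, under which 5 other chaperone-system genes were called higher.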
